A study of Mus musculus with 12 samples.

Results

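Cd14, the toll-like receptors, their partners and Slpi form a set of 10 genes of bacterial sensing in the liver: Cd14, Ly96, Lbp, Tlr2, Tlr3, Tlr4, Tlr5, Tlr7, Myd88 and Slpi. They were taken by symbol from the deposited expression table, with the values of their 15 RefSeq transcripts summed per gene, and make up 10 of the 24910 genes of that table. The set was chosen with the RNA values of these same mice in view, so the levels and differences of the 10 genes are given as a description and carry no test. Their SE and intervals describe spread and counting error. RNA was measured by RNA-seq and accessible chromatin by FAIRE-seq in the same livers of wild-type male C57BL/6J mice, which gave 12 samples from 3 groups of 2 mice. The replicates are separate mice. Control mice were kept on normal chow for 28 weeks and had no operation. Sham and VSG mice were put on a 60 kcal% high-fat diet at 8 weeks of age, fed it for 14 weeks before and 14 weeks after surgery, and received a liquid diet for the first 4 days after the operation. In VSG (vertical sleeve gastrectomy) mice about 80% of the stomach was removed. In Sham mice the stomach was isolated and pressed with forceps but left whole. Sham and Control mice thus differ in both diet and operation, which cannot be told apart, whereas VSG and Sham mice share the diet and differ in the gastrectomy.

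Lipopolysaccharide, a component of the outer membrane of Gram-negative bacteria, reaches the liver with the portal blood. Lbp carries it in plasma to Cd14, a receptor held on the cell surface by a lipid anchor, which hands it to the complex of Tlr4 and its co-receptor Ly96. Tlr2 recognises bacterial lipoproteins, Tlr5 flagellin, Tlr3 double-stranded RNA and Tlr7 single-stranded RNA, and all of these receptors except Tlr3 signal through the adaptor Myd88 to NF-kappaB. Slpi, the secretory leukocyte peptidase inhibitor, is a small secreted protein with WFDC domains that inhibits neutrophil elastase and cathepsin G and dampens the response to lipopolysaccharide. In the liver Lbp is a secreted product of hepatocytes, and Cd14 is best known from Kupffer cells and monocytes but is also made by hepatocytes in the acute phase.

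RNA levels are given as FPKM, fragments scaled to transcript length and library size, which allows levels of different genes to be compared per length. Between 8682 and 9236 genes reached an FPKM of 1 in each mouse, and sequencing depth relative to the first Control mouse, read from the spacing of the lowest values, ran from 0.676 in Sham 1 to 1.56 in VSG 1. The 2 Sham mice resembled each other least, with 30.7% of the genes at an FPKM of 1 or more differing at least 2-fold between them, against 16.3% in Control and 24.7% in VSG mice. Hepatocyte markers summed to 8617 to 16677 FPKM in every mouse. Exact zeros were frequent, with 16.0% of the genes tested listed at 0 in at least 1 mouse and 24 of 99 ribosomal protein transcripts at 0 in all 6, so a gene at 0 is described only as listed at 0. Of the 10 genes, 8 reached an FPKM of 1 in 2 or more mice and were kept for the fit, while Tlr4 and Tlr7 did not. Slpi and Tlr2 passed this filter through the Sham mice and 1 VSG mouse each, since both were under 1 in the Control mice.

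The starts of 5 of the genes are shown first, because they are where the FAIRE lists and the RNA can be read together. The sequences are from NCBIM37 (mm9), printed 5′ to 3′ on the strand of the gene, with matches to the motifs named below in capitals and the rest in lower case. For Slpi the whole peak of the Sham list next to its first annotated start is shown (chr2:164182408-164182705, minus strand, from −462 to −165 relative to that start), the region present in the Sham list only. For Tlr4 (chr4:66488368-66488617, plus strand), Tlr2 (chr3:83645690-83645939, minus strand) and Lbp (chr2:158131979-158132228, plus strand) the 250 bases before the start are shown, Tlr4 because its start carried a peak in the Sham list only and the others because theirs carried a peak in all 3 lists. For Ly96 the peak of the Control list is shown (chr1:16678697-16678843, plus strand), which begins 160 bp after the start at the end of the first exon and runs into the first intron.
Slpi, peak of the Sham list: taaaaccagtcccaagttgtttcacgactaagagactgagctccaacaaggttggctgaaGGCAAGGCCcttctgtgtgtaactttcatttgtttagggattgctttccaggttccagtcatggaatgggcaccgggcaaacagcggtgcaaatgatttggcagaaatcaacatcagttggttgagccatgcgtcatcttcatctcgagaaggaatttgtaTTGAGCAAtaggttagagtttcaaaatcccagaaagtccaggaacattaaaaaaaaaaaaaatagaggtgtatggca
Tlr4, before the start: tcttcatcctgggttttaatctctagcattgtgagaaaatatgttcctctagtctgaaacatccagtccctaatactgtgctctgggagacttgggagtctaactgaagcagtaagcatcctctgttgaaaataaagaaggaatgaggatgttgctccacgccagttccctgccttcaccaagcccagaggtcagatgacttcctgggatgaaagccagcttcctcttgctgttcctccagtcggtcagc
Ly96, peak of the Control list: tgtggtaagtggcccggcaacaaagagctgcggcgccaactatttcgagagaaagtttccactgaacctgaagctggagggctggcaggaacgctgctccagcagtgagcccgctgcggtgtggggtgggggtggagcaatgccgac
Tlr2, before the start: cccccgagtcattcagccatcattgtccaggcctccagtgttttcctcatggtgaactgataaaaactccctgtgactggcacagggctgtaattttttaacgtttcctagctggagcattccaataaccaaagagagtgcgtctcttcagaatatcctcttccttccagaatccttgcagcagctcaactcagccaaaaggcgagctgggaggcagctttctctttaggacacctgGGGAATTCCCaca
Lbp, before the start: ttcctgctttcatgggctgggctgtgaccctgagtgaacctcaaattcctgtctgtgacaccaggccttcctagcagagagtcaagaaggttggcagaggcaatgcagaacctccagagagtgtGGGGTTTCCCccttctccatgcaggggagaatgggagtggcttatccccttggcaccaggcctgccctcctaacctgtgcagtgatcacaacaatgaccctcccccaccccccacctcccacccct

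Searched on both strands were GGNNTTNCC for NF-kappaB, TGANTCA for AP-1, TTCNNNGAA for STAT, TTGCNNAA for C/EBP, GAAANNGAA for IRF and GAGGAAGT for PU.1. The Tlr2 sequence held 2 overlapping NF-kappaB matches, one on each strand, which span −13 to −4. The Lbp sequence held 2 overlapping NF-kappaB matches, both on the strand of the gene, which span −126 to −117. Among the 22375 windows of the same length before the starts of protein-coding genes, 13.2% held an NF-kappaB match. The Slpi peak held 1 NF-kappaB match, from −402 to −394 relative to the start, and 1 C/EBP match, from −241 to −234. Windows of 298 bases at the centres of the 52879 usable Sham peaks held these motifs in 17.3% and 15.6% of cases. The Tlr4 and Ly96 sequences held no match to the 6 motifs, which says only that these letters are not in the window. The AP-1, STAT, IRF and PU.1 patterns were not found in any of the 5 sequences. They occur in 5.87%, 6.73%, 7.51% and 2.22% of the windows before starts, respectively. No match overlapped a match to another motif.

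Across the mice, Lbp had the highest mean level of the set, 71.2 FPKM, followed by Myd88 at 12.4, Cd14 at 10.99, Ly96 at 7.21 and Slpi at 4.69. The receptors were low: Tlr5 averaged 2.53 FPKM, Tlr2 1.45, Tlr3 0.886, Tlr7 0.213 and Tlr4 0.179. The order depended on the group. In Control mice Slpi came eighth, with the mice of each neighbouring pair of genes separated except for Tlr5 and Cd14, whose mice overlapped. In Sham mice Cd14 came directly after Lbp, and the ranges of Cd14 and Myd88, of Myd88 and Slpi, and of Slpi and Ly96 overlapped. The ranges of Tlr5, Tlr3, Tlr7 and Tlr4 also overlapped from one to the next in Sham mice. In VSG mice the overlapping neighbours were Tlr5 and Cd14, Slpi and Tlr3, Tlr3 and Tlr2, and Tlr7 and Tlr4.

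**Figure D1:**
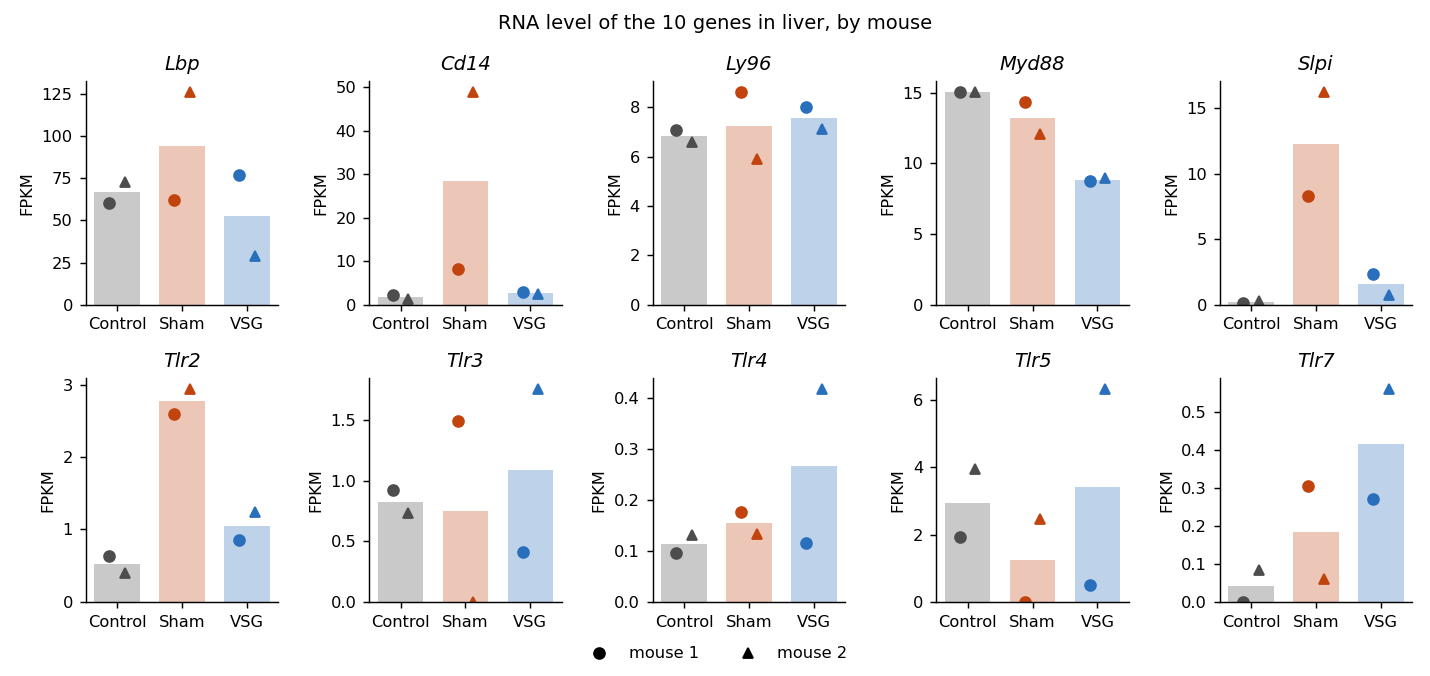
RNA level (FPKM, linear axis from 0, a separate scale for each gene) of the 10 genes in the 2 Control, 2 Sham and 2 VSG mice. Circles and triangles are mouse 1 and mouse 2 of a group and bars are group means. Cd14, Slpi and Tlr2 were highest in both Sham mice, and Sham mouse 2 reached 49.0 FPKM of Cd14 against 8.13 in Sham mouse 1.

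Lbp, the plasma carrier of lipopolysaccharide, stood at 60.1 and 73.0 FPKM in Control, 62.2 and 126 in Sham and 76.7 and 29.0 in VSG mice. The 3 groups overlapped in every pair, and the mice of a group differed by 2.03-fold in Sham and 2.64-fold in VSG. On the scale of log2(FPKM + 1), the difference of the group means was 0.42 ± 0.58 (SE of the limma fit, n = 2 per group) for Sham minus Control and −0.89 ± 0.58 for VSG minus Sham. Without Sham mouse 2 the former was −0.09. Lbp lies at chr2:158132229-158158588 on the plus strand. All 3 lists held a peak over its start, which was 1444, 1412 and 1175 bp long in Control, Sham and VSG, at the 93.5th, 94.6th and 88.3rd percentile of signal within its list. A further peak lay 3179 to 3216 bp before the start in all 3 lists. In the set, Lbp therefore joined the highest RNA level with the highest-ranking peak over a first annotated start in each list.

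Cd14, the receptor that takes lipopolysaccharide from Lbp, stood at 2.25 and 1.31 FPKM in Control mice, 8.13 and 49.0 in Sham mice and 2.82 and 2.45 in VSG mice. Both Sham mice lay above all other mice, the lower of them 3.61-fold above the higher Control mouse and 2.88-fold above the higher VSG mouse. The Sham mice themselves differed 6.03-fold, which is more than either of those gaps. The mean was 28.5 ± 28.9 FPKM (SD, n = 2) in Sham, 1.78 ± 0.67 in Control and 2.64 ± 0.26 in VSG mice. On the log2(FPKM + 1) scale, Sham minus Control was 2.96 ± 0.82 (SE), VSG minus Sham −2.56 ± 0.82 and VSG minus Control 0.41 ± 0.82. The size of these differences was set by 1 mouse: without Sham mouse 2, Sham minus Control was 1.74 and VSG minus Sham −1.33, and without Sham mouse 1 they were 4.19 and −3.78. As the RNA came from whole liver, more cells that express Cd14 and more Cd14 RNA per cell cannot be told apart, and this holds for every gene of the set.

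Cd14 lies at chr18:36884728-36886390 on the minus strand. The Sham list alone held a peak over its start, of 444 bp from 178 bp before to 265 bp after it. Its signal stood at the 6.87th percentile of the Sham peaks, and the peak was no longer present when the same number of top peaks, 42204, was taken from each list. In the Control and VSG lists the nearest peak lay 8082 bp before the start, over the start of the neighbouring gene Tmco6, where the Sham list had one as well.

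Ly96, the co-receptor that binds lipopolysaccharide in complex with Tlr4, stood at 7.07 and 6.61 FPKM in Control, 8.63 and 5.89 in Sham and 7.99 and 7.11 in VSG mice. These values lay close together: the Sham mice enclosed all other mice, and the VSG mice exceeded the Control mice by a margin of 1.01-fold between the nearest mice. The log2 differences were 0.06, 0.07 and 0.12 for Sham minus Control, VSG minus Sham and VSG minus Control, each with an SE of 0.25. Scaling all mice to the same upper quartile turned each of the 3 to the opposite sign. The Ly96 signal came from 1 of its 2 transcripts in the table, except for 0.986 FPKM of the other in Control mouse 2. On the main transcript alone Control mouse 2 stood at 5.62 FPKM, under the lower Sham mouse, so the Sham mice then did not enclose it. The Control list alone held a peak near the start of Ly96 (chr1:16678537-16699686, plus strand), the 147 bp peak printed above, at the 14.9th percentile. Its signal was 0.159, while the lowest signal kept was 0.137 in the Control, 0.193 in the Sham and 0.156 in the VSG list. The lists may differ in scale, so the absence of this peak from the other lists cannot be read as a difference. In the Sham and VSG lists the nearest peak lay 22998 and 22968 bp before the start.

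Tlr4 was near the limit of detection, at 0.0963 and 0.132 FPKM in Control, 0.176 and 0.133 in Sham and 0.115 and 0.419 in VSG mice. The highest value was that of VSG mouse 2, which also had the highest summed level of Kupffer cell markers, 358 FPKM against 37.5 to 140 in the other 5 mice. Tlr4 lies at chr4:66488618-66591318 on the plus strand, and in the Sham list alone a peak of 353 bp covered its start, at the 30.3rd percentile of signal. No peak of the Control list lay within 1172574 bp of the start and none of the VSG list within 1222208 bp. In RNA, the Sham mice lay above the Control mice, at 0.133 against 0.132 FPKM between the nearest mice, and between the 2 VSG mice. Tlr4 did not pass the filter on low values, so these levels cannot show whether its RNA and the peak at its start went together.

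Tlr2, the receptor for bacterial lipoproteins, stood at 0.638 and 0.399 FPKM in Control mice, 2.60 and 2.94 in Sham mice and 0.853 and 1.24 in VSG mice. The groups did not overlap in any pair, with Sham highest and Control lowest, and the Sham mice agreed within 1.13-fold. The ratio of the group means was 5.34 for Sham over Control and 2.64 for Sham over VSG. On the log2(FPKM + 1) scale, which understates changes of low genes, Sham minus Control was 1.31 ± 0.25 (SE), VSG minus Sham −0.89 ± 0.25 and VSG minus Control 0.43 ± 0.25. With a pseudocount of 0.1 they were 2.24, −1.34 and 0.90. FPKM of Tlr2 were whole multiples of the value of 1 read, within 0.01 read, which recovered 48 and 25 reads in Control, 132 and 259 in Sham and 100 and 86 in VSG mice. Scaled by depth, the reads gave a Sham over Control ratio of 5.32, with an exact 95% interval of 4.13 to 6.92 that covers counting error only. At the start of Tlr2 (chr3:83640195-83645689, minus strand) all 3 lists held a peak, which was 787, 915 and 859 bp long in Control, Sham and VSG, at the 63.98th, 41.8th and 63.5th percentile. The peak thus ranked lowest in the list of the group with the most Tlr2 RNA, although ranks in lists of 42204, 52881 and 44539 peaks are set by all the other peaks too.

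Tlr3, the receptor for double-stranded RNA, stood at 0.923 and 0.729 FPKM in Control mice and at 0.415 and 1.76 in VSG mice, while it was listed at 0 in Sham mouse 2 beside 1.49 in Sham mouse 1. Tlr5, the receptor for flagellin, stood at 1.92 and 3.96 FPKM in Control, was listed at 0 in Sham mouse 1 beside 2.46 in Sham mouse 2, and reached 0.489 and 6.33 in VSG mice. All pairs of groups overlapped for both receptors. The log2 differences, between −0.21 and 0.32 for Tlr3 (SE 0.57) and between −1.03 and 0.83 for Tlr5 (SE 0.98), turned sign when single mice were left out, except Sham minus Control for Tlr5. With a pseudocount of 0.1, which gives values at 0 more weight, Sham minus Control was −1.21 for Tlr3 and −2.50 for Tlr5, and VSG minus Sham was 1.29 and 1.94. Both starts carried peaks in all lists. The Tlr3 peak (gene at chr8:46481019-46495962, minus strand) covered the start in the Sham and VSG lists and began 40 bp after it in the Control list. A second peak lay 414 bp before the first start in the Sham and 426 bp before it in the VSG list, with none there in the Control list. Tlr5 (chr1:184884919-184906175, plus strand) had a peak over its start in each list, split into pieces of 296 and 456 bp in the Sham list, and further peaks in its first 5 kb, 2245 and 3268 bp after the start in Control, 2225 and 3190 bp in Sham and 2242 and 3401 bp in VSG.

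Tlr7, a receptor for single-stranded RNA, was at or near 0, with 0 and 0.0825 FPKM in Control, 0.305 and 0.0612 in Sham and 0.271 and 0.560 in VSG mice. The VSG mice lay above the Control mice, and Sham mice overlapped both. Of its 5 transcripts in the table, 3 were listed at 0 in all mice. Tlr7 (chrX:163742861-163768490, minus strand) was the gene of the set without a peak within 5000 bp of any start in any list. The nearest peak to its first start lay 96857 bp away, in the Sham list.

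Myd88, the adaptor shared by Tlr2, Tlr4, Tlr5 and Tlr7, stood at 15.0 and 15.1 FPKM in Control, 14.3 and 12.1 in Sham and 8.73 and 8.94 in VSG mice. It had the smallest SE of the 8 genes tested, and no pair of groups overlapped: Control was highest and VSG lowest. The log2 difference was −0.18 ± 0.20 (SE) for Sham minus Control and −0.52 ± 0.20 for VSG minus Sham. For VSG minus Control it was −0.71 ± 0.20. Each kept its sign in all 10 alternatives run. Only the other pseudocount, upper quartile scaling and leaving out a mouse of the groups compared could change it. Recovered reads numbered 725 and 606 in Control, 467 and 681 in Sham and 657 and 397 in VSG mice, and the depth-scaled VSG over Control ratio was 0.586 (exact 95% interval 0.540 to 0.635, counting error only). Myd88 (chr9:119245052-119250529, minus strand) had a peak over its first start in all lists, at the 69.0th percentile in Control, 62.9th in Sham and 49.5th in VSG. A second peak in all lists covered the start of the longer transcript Myd88-003, which overlaps the start of the neighbouring gene Acaa1a on the other strand, so that this peak cannot be assigned to either gene.

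Slpi, the secreted inhibitor, stood at 0.157 and 0.315 FPKM in Control mice, 8.31 and 16.3 in Sham mice and 2.36 and 0.741 in VSG mice. The groups did not overlap, with Sham highest and Control lowest. The lower Sham mouse was 26.4-fold above the higher Control mouse and 3.53-fold above the higher VSG mouse. On the log2(FPKM + 1) scale, Sham minus Control was 3.36 ± 0.47 (SE), VSG minus Sham −2.39 ± 0.47 and VSG minus Control 0.97 ± 0.47. With a pseudocount of 0.1 they were 5.17, −3.03 and 2.14. Leaving out 1 mouse gave 2.92 to 3.81 for the first and −2.86 to −1.92 for the second. For VSG minus Control it gave 0.50 without VSG mouse 1 and 1.44 without VSG mouse 2. The levels in Control mice rest on few reads: 3 and 5, with exact Poisson 95% intervals of 0.619 to 8.77 and 1.62 to 11.7, against 107 and 363 in Sham and 70 and 13 in VSG mice. Scaled by depth, the Sham over Control ratio was 58.3 (exact 95% interval 29.4 to 136) and the VSG over Control ratio 7.67 (3.72 to 18.4), where the intervals cover counting error and not the spread between mice.

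Slpi extends over chr2:164179806-164214831 on the minus strand, since the transcript Slpi-002 starts far from the others. Next to the first start, at 164182243, the Sham list held the 298 bp peak printed above, 165 bp before the start and inside the intron of Slpi-002, at the 64.1st percentile of signal, and it was retained among the 50% of Sham peaks with the highest signal. The nearest peaks of the Control and VSG lists lay 33146 and 33216 bp before this start. Those belong to a region 558 to 628 bp before the Slpi-002 start that was present in all 3 lists, so that Slpi counts as having a peak in every list when any annotated start is used.

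**Figure D2:**
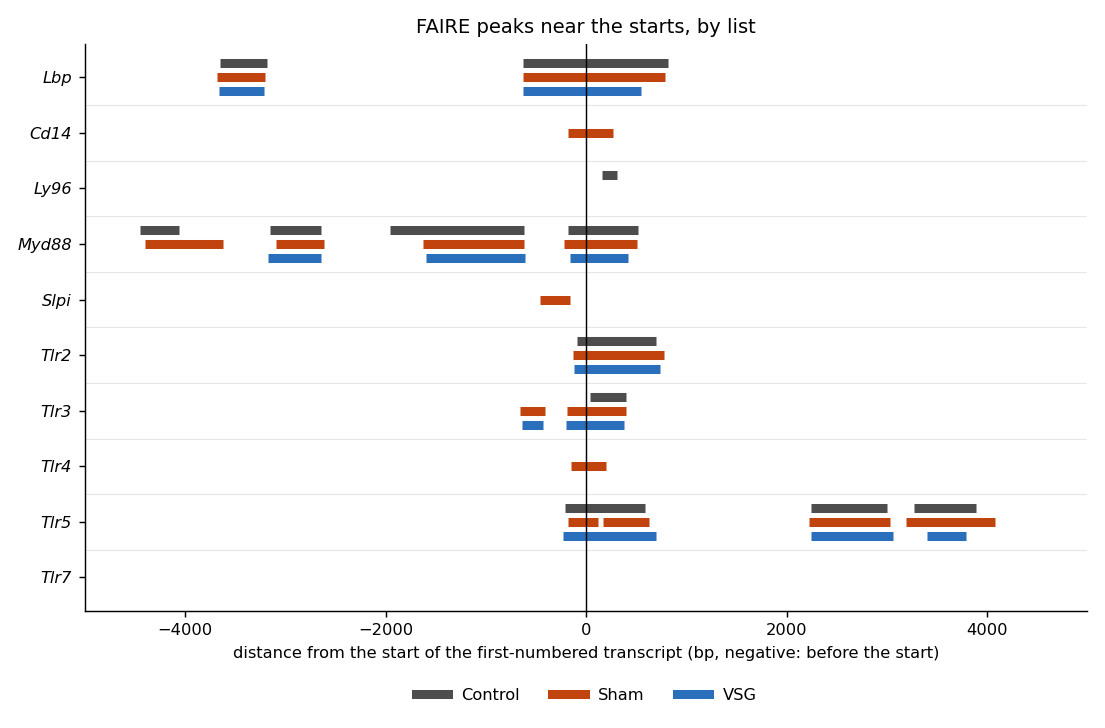
FAIRE peaks of the Control, Sham and VSG lists within 5000 bp of the start of the first-numbered transcript of each gene, drawn to scale in bp from the start with negative distances before it. The start peaks of Cd14, Tlr4 and Slpi appear in the Sham row only, that of Ly96 in the Control row only, and Tlr7 has none.

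FAIRE-seq recovers DNA that formaldehyde does not hold on nucleosomes. Each deposited list combines the 2 mice of a group, so the presence of a peak has no error from replicates and was not tested. Within 1000 bp of any annotated start, 7 of the 10 genes had a peak in the Control list, 8 in the Sham list and 6 in the VSG list, against 51.4%, 51.4% and 52.6% of 22380 protein-coding genes. Lbp, Tlr2, Tlr3, Tlr5, Myd88 and Slpi had a peak in all lists by this rule. Cd14 and Tlr4 had a peak in the Sham list only, a pattern shown by 0.956% of protein-coding genes. With the first-numbered start alone, an alternative chosen after the data were seen, Slpi joined them, and 0.804% of protein-coding genes showed the pattern. The Sham list was the longest of the 3. With the same number of top peaks from each list Tlr4 retained the Sham-only pattern and Cd14 did not. Among the 50% of peaks with the highest signal, neither had a peak, and 5 of the 10 genes had one in the Control list, 3 in the Sham list and 4 in the VSG list, so that Sham went from the most to the fewest, beside 43.3%, 42.1% and 44.7% of protein-coding genes. None of the 10 genes had a site of the 4 deposited lists of variable FAIRE sites within 5000 bp of a start, and the nearest such site lay 196150 bp from a start of Myd88.

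**Figure D3:**
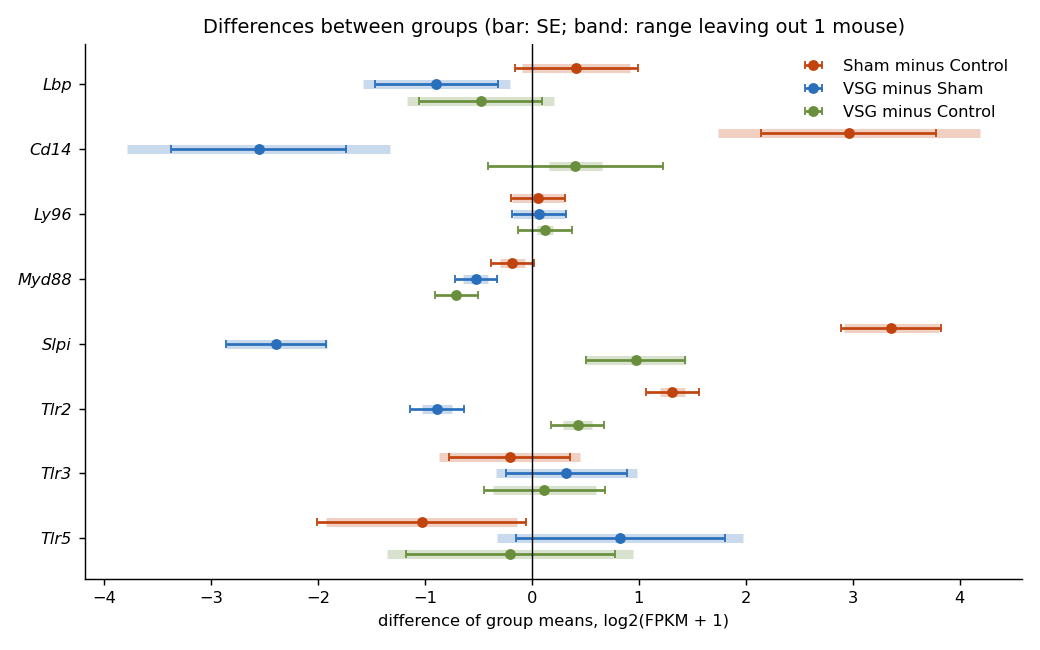
Differences of group means on the log2(FPKM + 1) scale for the 8 genes tested, with the SE of the limma fit as bars and the range over fits that leave out 1 mouse as pale bands. Cd14, Slpi and Tlr2 lie right of 0 for Sham minus Control and left of 0 for VSG minus Sham, Cd14 with the widest band, from 1.74 to 4.19.

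Of the 8 genes kept for the fit, Cd14, Tlr2 and Slpi had both Sham mice above both Control mice, 3 of the 8 (25.4% of all 9869 genes tested) and Myd88 had them below (20.4%). Both VSG mice lay below both Sham mice for 4 of the 8 (9.78%) and above them for 0 (18.5%). VSG mice lay above Control mice for Cd14, Ly96, Tlr2 and Slpi (33.7%) and below them for Myd88 (14.8%). As the genes were selected on these contrasts, nothing is read from these counts. The comparisons share their mice: those of Sham enter both of the first comparisons. The median log2 difference of the 8 was 0.24 for Sham minus Control, −0.70 for VSG minus Sham and 0.12 for VSG minus Control, beside 0.04, 0.08 and 0.13 over all genes. With no filter on low values, which brings in Tlr4 and Tlr7, the median of the 10 was 0.12, −0.23 and 0.15, beside 0.01, 0.02 and 0.03 over all genes. Upper quartile scaling gave 0.01 for VSG minus Control, beside −0.01 over all genes.

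To see the rest of the pathway, 5 further lists were drawn up. They were other receptors and co-receptors, adaptors with kinases and transcription factors, inhibitors, induced target genes, and WFDC relatives of Slpi with proteases. Of their 97 genes, 93 were in the table and 63 were tested, and Saa1, Saa2, Saa3 and Pi3 were not analysed here. The limma fit across all genes tested, with Benjamini-Hochberg adjustment, called 0 of the 63 at an FDR of 10% in each comparison, beside 0.284% of all genes for Sham minus Control, 0.0507% for VSG minus Sham and 0.284% for VSG minus Control. At an unadjusted p under 0.05 it had 8 higher and 3 lower in Sham than Control mice, 2 higher and 4 lower in VSG than Sham mice, and 6 higher and 1 lower in VSG than Control mice. Over all genes, 10.9%, 4.85% and 9.56% passed this unadjusted threshold in the 3 comparisons. The difference was above 0 in 52.8% of all genes for Sham minus Control, 59.6% for VSG minus Sham and 61.3% for VSG minus Control, which are the shares to set beside the counts of higher and lower genes in each list. The counts depended on the mice used: without Sham mouse 2, Mapk14 and Map3k7 were called lower and Wfdc2 higher in Sham than Control mice, and without Sham mouse 1, Sigirr was called lower in Sham mice in both comparisons with them. Map3k7, a kinase upstream of NF-kappaB, is named here after its values were seen.

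Among the other receptors, 6 of 6 genes tested were higher in Sham than Control mice, beside 52.8% of all genes, with a median log2 difference of 0.996, but none passed the adjusted threshold. Cd36, a scavenger receptor for oxidised lipoproteins and fatty acids that also cooperates with toll-like receptors, stood at 6.73 and 6.48 FPKM in Control, 22.5 and 23.3 in Sham and 20.3 and 25.2 in VSG mice. Its log2 difference was 1.65 ± 0.21 for Sham minus Control (limma adjusted p = 0.121) and 1.63 ± 0.21 for VSG minus Control (limma adjusted p = 0.134), and it was called in the former comparison when no filter on low values was used. Tlr12, a receptor for profilin of protozoa, stood at 1.82 and 1.91 FPKM in Control, 8.66 and 6.63 in Sham and 10.2 and 7.39 in VSG mice. Ly86, a relative of Ly96 that pairs with Cd180, stood at 1.16 and 1.23, at 6.45 and 4.25 and at 3.96 and 7.34. These 3 genes were alike in being higher in both high-fat groups, without overlap with Control mice, and the mice of the Sham and VSG groups overlapped for each of them. VSG minus Sham differences in this list were small, with a median of 0.01, the extremes being the chaperone Hsp90b1 at −0.50 ± 0.26, Unc93b1, which escorts receptors to endosomes, at 0.34 ± 0.22, and the receptor chaperone Cnpy3 at −0.30 ± 0.34.

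Of the adaptors, kinases and transcription factors, 14 of 29 tested genes were higher and 15 lower in Sham than Control mice, with a median of −0.07. In VSG mice 21 were higher and 8 lower than in Sham mice, and 20 were higher and 9 lower than in Control mice, with medians of 0.13 and 0.15 beside 0.08 and 0.13 over all genes. The kinase p38, encoded by Mapk14, stood at 3.63 FPKM in Sham mouse 1 and at 21.3 to 32.8 in the other mice. Irak1, a kinase recruited by Myd88, was listed at 0 in Sham mouse 1 and stood at 5.33 to 15.1 elsewhere. Tirap, which bridges Myd88 to Tlr2 and Tlr4, stood at 3.78 and 4.58 FPKM in Control and 0.852 and 2.05 in VSG mice, which did not overlap, and at 3.18 in Sham mouse 1, while it was listed at 0 in Sham mouse 2. Fos and Jun, subunits of AP-1, were set by VSG mouse 1, which had 71.6 FPKM of Fos and 74.4 of Jun against 0.605 to 2.72 and 7.06 to 18.2 in the remaining mice.

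Among inhibitors of the pathway, 7 of 15 tested genes were higher and 8 lower in Sham than Control mice. Dusp1, a phosphatase that switches off p38, stood at 26.5 and 17.1 FPKM in Control, 8.34 and 4.06 in Sham and 25.9 and 20.4 in VSG mice, so that both Sham mice were lowest, with log2 differences of −1.70 ± 0.40 against Control (limma adjusted p = 0.302) and 1.81 ± 0.40 for VSG minus Sham (limma adjusted p = 0.739). Il1rn, the interleukin 1 receptor antagonist, stood at 2.71 and 2.62 FPKM in Control, 4.65 and 23.0 in Sham and 1.999 and 4.30 in VSG mice, so that both Sham mice were highest. Socs3, an inhibitor of cytokine signalling, was lowest in VSG mice at 10.8 and 3.79 FPKM, against 18.6 and 31.8 in Sham and 20.6 and 13.4 in Control mice. Zfp36, which destabilises inflammatory mRNA, stood at 150 and 69.5 FPKM in VSG mice and at 35.3 to 63.7 elsewhere. The receptor inhibitor Sigirr was listed at 0 in Sham mouse 2 beside 5.85 to 8.59 in the other mice, and the deubiquitinase Otud7b was at 0.710 in VSG mouse 2 beside 2.03 to 3.76.

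Of the induced target genes, 7 of 8 tested were higher in Sham than Control mice, with a median of 0.93, and 7 of 8 were lower in VSG than Sham mice, with a median of −0.53, beside 52.8% of all genes higher in the former and 59.6% higher in the latter comparison. Many classical targets, among them Tnf, Il6, Il1b and Nos2, did not pass the filter on low values. Lcn2, which withholds iron from bacteria, stood at 154 and 109 FPKM in Control, 1932 and 5279 in Sham and 2069 and 214 in VSG mice. Sham minus Control was 4.62 ± 1.16 for Lcn2 (limma adjusted p = 0.332), and the VSG mice were split, one inside the Sham range and the other near Control. The chemokine Ccl2 stood at 0.586 and 0.0703 FPKM in Control, 2.34 and 1.70 in Sham and 0.884 and 1.53 in VSG mice, the same order of groups as Tlr2. Like Tlr2, it was under 1 in the Control mice and passed the filter through the Sham mice and VSG mouse 2. Its place among the 8 tested genes thus rests on the mice where it was high. Cxcl10 was highest in Sham mouse 1 at 7.45 and VSG mouse 2 at 5.22. Cxcl1, a chemokine for neutrophils, stood at 74.9 and 63.9 FPKM in Sham and 20.7 and 16.5 in VSG mice, but at 120 in Control mouse 1. Cebpd was lowest in VSG mice, at 1.55 and 1.18 FPKM against 2.56 and 2.71 in Sham and 4.91 and 4.67 in Control mice.

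Among the WFDC relatives and proteases, 5 of 14 genes were tested. The neutrophil proteases Elane and Ctsg, both targets of Slpi, did not pass the filter. Wfdc2, a secreted relative of Slpi with WFDC domains, stood at 6.50 and 5.04 FPKM in Control, 82.9 and 31.1 in Sham and 34.0 and 25.6 in VSG mice. Its log2 difference was 2.95 ± 0.50 for Sham minus Control (limma adjusted p = 0.192) and −0.77 ± 0.50 for VSG minus Sham (limma adjusted p = 0.944). Wfdc2 in VSG mice thus lay nearer to Sham than Control mice on this scale, with no overlap between VSG and Control mice. Slpi in VSG mice lay nearer to Control mice on the same scale, also without overlap with them. In ratios of mean FPKM, Slpi was 6.56-fold higher in VSG than Control mice and 7.94-fold higher in Sham than VSG mice. Without a pseudocount the nearness of Slpi to Control mice was thus slight. Wfdc17 stood at 6.52 and 6.55 in Control, 23.0 and 13.4 in Sham and 12.8 and 39.9 in VSG mice. Wfdc1 was lowest in Sham mice, at 0.378 and 0.218 FPKM against 1.01 and 2.50 in VSG and 1.31 and 1.14 in Control mice. Prtn3, a neutrophil protease, was listed at 0 in Sham mouse 1 and VSG mouse 2 and stood at 34.2 and 30.6 in the other mouse of each group.

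**Figure D4:**
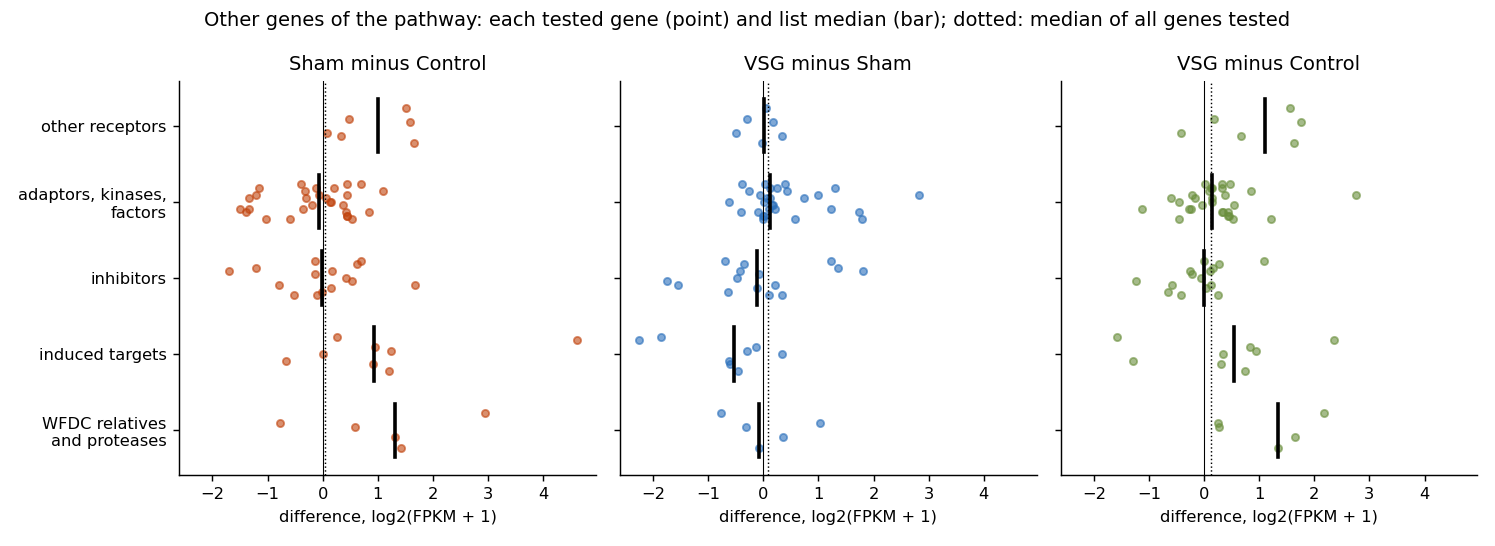
Log2(FPKM + 1) differences of the tested genes of the 5 pathway lists, 1 panel per comparison. Each point is a gene, black bars are list medians and the dotted line is the median of all genes tested. The medians of the other receptors, 0.996 for Sham minus Control and 1.11 for VSG minus Control, lie right of 0, and the median of the induced targets lies at 0.93, −0.53 and 0.55.

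Genes whose pattern over the 6 mice was most like that of Cd14 were found by Pearson correlation of log2(FPKM + 1) with the other 9868 genes tested, a description over 6 mice that share their libraries. They were Syne4 (r = 0.995), which links the nucleus to the cytoskeleton, the RNA-binding protein gene Zc3h12d (0.985), the junctional adhesion gene F11r (0.980), Sh3gl1 (0.978) and Isyna1 (0.975), which makes inositol phosphate. Isyna1 stood at 20.8 and 66.3 FPKM in Sham mice and at 5.95 to 13.5 in the others, whereas F11r spanned 25.6 to 35.1 FPKM in all, so that a high r does not mean a large difference. For Slpi they were Zfp513 (0.991), the ubiquitin ligase gene Trim13 (0.990), C4bp (0.990), Rprd2 (0.989) and Cpb2 (0.987). Zc3h12d and Rprd2 were under an FPKM of 1 in all Control and VSG mice and passed the filter on low values through the Sham mice alone. Rprd2 was listed at 0 in both Control mice. The place of these genes among those compared thus rests on the mice where Cd14 and Slpi were high. C4bp, a complement inhibitor, stood at 311 and 283 FPKM in Control, 792 and 999 in Sham and 506 and 395 in VSG mice. Cpb2, a carboxypeptidase that slows fibrinolysis, stood at 216 and 214, at 451 and 747 and at 323 and 256. Cd14 and Slpi correlated with r = 0.920, which placed Slpi at rank 52 of the genes most like Cd14 and Cd14 at rank 72 of those most like Slpi. With a pseudocount of 0.1, 4 of the 5 genes named for Cd14 and 1 of the 5 named for Slpi stayed among the first 5.

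Summed levels of markers of other liver cells were compared in the same libraries. The 9 neutrophil markers summed to 15.0 and 6.58 FPKM in Control, 43.5 and 47.6 in Sham and 23.5 and 17.998 in VSG mice. The sum had the same order of group means as Cd14, Tlr2 and Slpi, with Sham highest and Control lowest. That order was also found for the monocyte and recruited macrophage sum and the cholangiocyte sum given below, where Sham and VSG mice overlapped. S100a8 was the most abundant of the markers (21.6 and 23.2 FPKM in Sham mice), and the defining marker Ly6g was at 0 in all mice. Of the 9 markers, 4 were tested: 3 were higher in Sham than Control mice, and 1 was higher in VSG than Sham mice. The 12 Kupffer cell markers, led by C1qb, summed to 54.9 and 37.5 FPKM in Control, 140 and 130 in Sham and 108 and 358 in VSG mice, so that Sham and VSG mice overlapped. The 7 markers of monocytes and recruited macrophages, led by Lyz2, summed to 7.35 and 7.49 in Control, 27.8 and 70.9 in Sham and 23.8 and 53.0 in VSG mice, and of them 2 were tested. The 5 cholangiocyte markers, led by Spp1, summed to 30.7 and 32.7 in Control, 186 and 62.9 in Sham and 145 and 30.9 in VSG mice. Spp1 alone stood at 28.5 and 29.4 FPKM in Control, 183 and 58.4 in Sham and 143 and 29.2 in VSG mice. The sum thus follows this 1 gene and says little of the other cholangiocyte markers. Lyz2 likewise made up most of its sum, with 22.2 and 60.0 FPKM in Sham and 19.2 and 49.5 in VSG mice. Dcn did so among the stellate cell markers below, with 13.9 and 23.8 FPKM in Sham mice. Sinusoidal endothelial markers, led by Clec4g, were lowest in Sham mice at 6.18 and 4.92 FPKM, against 39.3 and 14.7 in Control and 24.9 and 21.8 in VSG mice, and stellate cell markers, led by Dcn, summed to 17.4 and 30.7 in Sham mice against 46.5 to 65.2 in the others. The 5 hepatocyte markers in the table, led by Apoa1, summed to 16677 and 13236 FPKM in Control, 13958 and 8617 in Sham and 15421.5 and 10651 in VSG mice. These sums overlapped in every pair of groups. The median log2 difference of the 5 was −1.63 for Sham minus Control, 1.05 for VSG minus Sham and −0.55 for VSG minus Control. In these comparisons 0, 4 and 1 of the 5 were higher, beside 52.8%, 59.6% and 61.3% of all genes. In the same order, 11, 10 and 12 of the 12 Kupffer cell markers were higher. So were 0, 5 and 3 of the 6 tested sinusoidal endothelial and 1, 4 and 5 of the 5 tested stellate cell markers. Apoa1, which made up most of each sum, stood at 11117 and 8077 FPKM in Control, 10246 and 7161 in Sham and 10781 and 6334 in VSG mice. B cell markers summed to 0.275 to 3.25 FPKM and T and NK cell markers to 0.493 to 2.202 over the mice. No marker of B cells or of T and NK cells passed the filter on low values, so none of these was tested. Tested were 12 Kupffer cell, 2 monocyte and recruited macrophage, 4 neutrophil and 6 sinusoidal endothelial markers. The others tested were 5 stellate cell, 2 cholangiocyte and 5 hepatocyte markers. Of the markers tested, the limma fit called 0 in each comparison at an FDR of 10%. Over all genes it called 0.284% for Sham minus Control, 0.0507% for VSG minus Sham and 0.284% for VSG minus Control. The part of these cell types in the levels of Cd14, Tlr2 and Slpi was not tested.

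**Figure D5:**
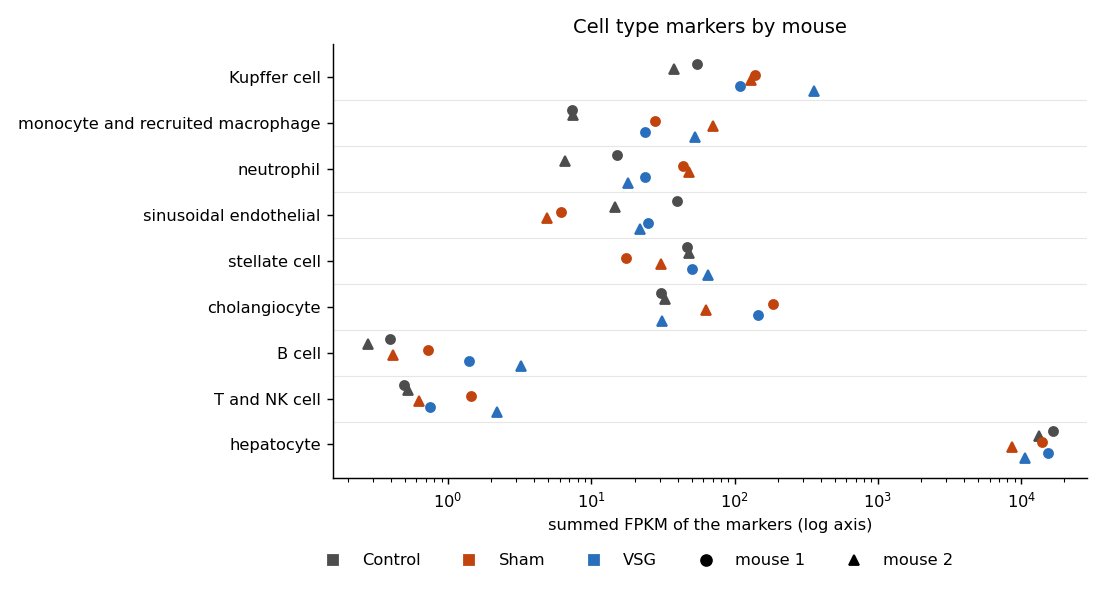
Summed FPKM of the markers of 9 liver cell types in each mouse, on a log axis, with groups by colour and mouse 1 and 2 of a group as circles and triangles. Neutrophil markers were highest in the 2 Sham mice, at 43.5 and 47.6, and Kupffer cell markers in VSG mouse 2, at 358.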

How the data were processed

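RNA-seq and FAIRE-seq of the same livers were analysed from the deposited tables, and no reads were aligned again. Per the deposited table, FPKM are Cufflinks estimates per RefSeq transcript and mouse, made after TopHat2 alignment to mm9. The paper's methods give ribosomal depletion and the labels poly(A) enrichment, which affects the transcripts captured. The signal of FAIRE peaks comes from F-seq as run by the authors, and peaks were kept by IDR over the 2 mice of a group. The lists therefore have no value per mouse, and their depth is unknown. Signal served only for percentiles inside each list and, for Ly96, to set its peak beside the lowest signal of each list. The deposited tables of the authors' comparisons hold log2 fold changes and p-values of DESeq2 and were not used. Sites of the 4 deposited lists of variable regions were used by position only.

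FPKM were summed per gene, with 34046 of 34933 transcripts matched to a symbol through RefSeq (names only), and genes reaching an FPKM of 1 in 2 or more mice were kept. Their log2(FPKM + 1) in the 6 RNA samples entered limma 3.58.1 (R 4.3.3) with a variance trend and Benjamini-Hochberg adjustment at 10%. Whether the mice came from separate cages or litters is not stated. A permutation test of 2 against 2 mice cannot go under p = 0.333 and was not run. The fit was tested on simulated data. Whole reads were recovered for 3 of the 8 genes of the set with 1 transcript. Starts and positions are from the NCBIM37 annotation (GENCODE), the build of the files. Other steps used Python 3.11.15, pandas 2.3.3, scipy 1.17.1 and matplotlib 3.10.9.

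The members, gene lists and tests were chosen with earlier results of these data known. Genes named are the members, in each pathway list those past the threshold and the 3 with the largest absolute difference in each comparison, the 5 most like Cd14 and Slpi, and the most abundant tested marker of each cell type. Alternatives were another pseudocount, no filter, single transcripts, upper quartile scaling, no variance trend, only 2 groups, a replicate block, each mouse left out, an FDR of 5%, and other distances and thresholds for peaks.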

Additional observations from a re-analysis of the deposited data

How the results depend on the processing

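With 2 mice per group and unknown depth of the FAIRE lists, single mice decide many counts. Main counts of genes called were 28 for Sham minus Control, 5 for VSG minus Sham and 28 for VSG minus Control. At an FDR of 5% they were 17, 2 and 16. With a pseudocount of 0.1 there were 8 for VSG minus Sham, with no filter 64 for Sham minus Control, with single transcripts 9 for VSG minus Sham, and with only the 2 groups compared 17 for Sham minus Control and 0 for VSG minus Sham. Leaving out 1 mouse gave 0 to 157, 0 to 50 and 0 to 34, in the same order of comparisons, with 0 in all 3 comparisons without either Control mouse and the highest counts without Sham mouse 2. A group left with 1 mouse is assumed to vary like the others. The genes of the pathway lists called numbered 0 in the main fit, 1 for Sham minus Control with no filter (Cd36) and 1 with single transcripts (Chuk, named after its values were seen), and 0 to 3, 0 to 1 and 0 to 0 leaving out 1 mouse. The cause of these shifts was not tested.

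With the replicate number as a block, 9, 0 and 10 genes were called. Deviations of same-numbered mice correlated at 0.118, 0.0390 and 0.0643 for the 3 pairs of groups, so the number does not pair the mice, and the block is not used elsewhere. Leaving out 1 mouse, the medians of the members lay between 0.19 and 0.39 for Sham minus Control, −0.70 and −0.43 for VSG minus Sham and 0.12 and 0.42 for VSG minus Control. With no filter they were 0.12, −0.23 and 0.15, and with upper quartile scaling 0.17, −0.77 and 0.01. Of the 240 alternative values of single members, 224 kept their sign, and the 16 that turned belong to Ly96, Lbp, Tlr3 and Tlr5. Many of the 224 could not turn. A member's difference stays the same with no filter, with the replicate block and without a mouse of the group not compared. Upper quartile scaling moved the median of all genes from 0.13 to −0.01 for VSG minus Control.

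With peaks over the start itself, 4 members had one in the Control list in place of 7, 7 in the Sham list in place of 8 and 5 in the VSG list in place of 6. The shares of protein-coding genes were 44.9%, 45.2% and 46.3%. With the 50% of peaks with the highest signal, 3 had one in the Sham list in place of 8, against 5 in Control and 4 in VSG. Beside these stood 42.1% of protein-coding genes in Sham, 43.3% in Control and 44.7% in VSG. The Sham-only pattern of Tlr4 was then lost. Of the 10 genes most like Cd14 and Slpi, 5 stayed with a pseudocount of 0.1.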
